A study of Mus musculus with 9 samples.

Results

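The fibroblast growth factor (FGF) ligands and receptors described here are 10 genes of the 24011 that were named on the arrays. The ligands were Fgf1, Fgf2, Fgf6, Fgf7, Fgf9 and Fgf21, and the receptors were Fgfr1, Fgfr2, Fgfr3 and Fgfr4. They were found by gene symbol. Probe sets (groups of probes summarised to 1 value) were to be chosen by their mean level on the 9 arrays where a gene had several. Each of the 10 genes had 1, so that step selected nothing, but the genes themselves were picked with earlier results of these data known.

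Myoblasts are the proliferating precursors of muscle fibres, and those used here were mouse primary cells grown out from satellite cells, the stem cells of skeletal muscle. All 3 groups were expanded on collagen in Ham's F10 medium with 20% fetal bovine serum and 2.5 ng/ul basic FGF, which is the protein product of Fgf2. They were then moved to DMEM with 2% horse serum and kept for 24 h with 100 ng/ml recombinant BMP4, with 500 ng/ml recombinant GREM1, or with mock treatment (control). BMP4 is a bone morphogenetic protein, a ligand of the TGF-beta family, and GREM1 (gremlin 1) is a secreted protein that binds and blocks such ligands. Each group had 3 arrays, hybridised with amplified total RNA, and the values are log2 expression values. The labels name no genotype, strain or age and do not say whether replicates came from separate cultures. The p-values therefore cover the spread among these arrays, which may be technical.

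FGFs are secreted proteins that bind receptor tyrosine kinases together with heparan sulfate on the cell surface, and the bound receptors signal through adaptor proteins to the RAS-ERK and PI3K-AKT pathways. Most FGFs act near the cells that make them, whereas Fgf21 circulates as a hormone and needs the co-receptor beta-klotho (Klb). In muscle, FGF signalling through Fgfr1 is known to keep myoblasts dividing and to hold back their differentiation. Fgf6 is a ligand made mainly by cells of the muscle lineage.

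The labelled cell type was checked against marker genes. All 8 myogenic markers (Myod1, Myf5 and Des among them) were above the 30th percentile of all 9 arrays. Of the markers of other cell types, the following were above it on all 9 arrays: 4 of 9 for fibroblasts (Thy1, Col1a1, Col1a2 and Col3a1), 3 of 6 for leukocytes (Cd68, Itgam and Csf1r), 5 of 6 for pericytes and smooth muscle, 1 of 6 for endothelium, 1 of 4 for adipocytes (Plin1) and 2 of 2 for Schwann cells. Col3a1 reached 6.65 to 7.78 and Cd68 6.26 to 6.67. Pecam1 for endothelium, Pdgfrb and Rgs5 for pericytes and Sox10 for Schwann cells were among those above it on all 9. Above it on 0 arrays were Ptprc for leukocytes, Dcn, Lum and Dpt for fibroblasts, and Adipoq, Cidec and Lep for adipocytes. The same held for Emcn (endothelium) and Kcnj8 (pericytes). Pdgfra, Tek, Adgre1 and Cd3e were above it on 1 array. The part of such cells in the FGF values was not tested. The mean log2 level of 13 muscle differentiation markers was 10.45 to 10.94 in control, 10.45 to 11.003 with BMP4 and 11.11 to 11.19 with GREM1, and that of 9 proliferation markers was 8.56 to 9.03, 8.63 to 9.17 and 8.05 to 8.28. Replicate 3 had the highest proliferation level in each group, and control 3 and BMP4 3 had the lowest differentiation levels of the 9 arrays. In the principal components of all tested genes, the GREM1 arrays stood apart from the other arrays on the first (42.2% of the variance) and control replicate 1 on the second (20.9%). In bulk RNA, fewer cells of a type and less RNA per cell cannot be told apart.

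The upstream sequences of Fgf9, Fgf6 and Fgf21 are shown because these were the members whose levels ranged most widely over the 9 arrays. They are the 250 bases before the annotated RefSeq start site (GRCm38.p6), from a promoter set that held 8 of the 10 members. They lie at chr14:58072436-58072685 (plus strand) for Fgf9, at chr6:127015292-127015541 (plus strand) for Fgf6 and at chr7:45615491-45615740 (minus strand) for Fgf21. Capitals mark matches on either strand to 4 motifs: CANNTG (the E-box of myogenic and other helix-loop-helix factors), GGCGCC (a GC-rich SMAD motif), TGATGNAAT (a C/EBP-ATF element) and TATAAA (the TATA box).
Fgf9: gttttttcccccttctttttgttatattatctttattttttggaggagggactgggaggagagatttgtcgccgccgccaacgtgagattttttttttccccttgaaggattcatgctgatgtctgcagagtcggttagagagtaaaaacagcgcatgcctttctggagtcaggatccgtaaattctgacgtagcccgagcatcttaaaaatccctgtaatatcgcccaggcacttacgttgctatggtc
Fgf6: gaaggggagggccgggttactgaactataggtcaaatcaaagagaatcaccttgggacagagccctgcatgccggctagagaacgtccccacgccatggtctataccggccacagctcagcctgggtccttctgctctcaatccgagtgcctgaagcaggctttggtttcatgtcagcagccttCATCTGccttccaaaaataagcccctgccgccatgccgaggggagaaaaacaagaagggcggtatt
Fgf21: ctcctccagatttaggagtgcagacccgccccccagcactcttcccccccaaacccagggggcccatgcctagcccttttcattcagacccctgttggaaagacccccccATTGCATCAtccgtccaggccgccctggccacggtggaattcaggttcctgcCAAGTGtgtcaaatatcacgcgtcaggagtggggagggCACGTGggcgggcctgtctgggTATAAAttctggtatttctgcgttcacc
The Fgf9 sequence held 0 matches. The Fgf6 sequence held 1 E-box, CATCTG at -66. The Fgf21 sequence held E-boxes at -88 (CAAGTG) and -50 (CACGTG), the C/EBP-ATF element on the opposite strand at -140 (ATTGCATCA) and TATAAA at -28, none of them overlapping. Of 32851 promoter windows of the same length, 66.2% held the E-box, 9.59% GGCGCC, 0.816% the C/EBP-ATF element and 12.4% TATAAA. These matches describe the letters only and say nothing of factor binding.

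Differences between groups were tested with limma over 17142 genes, and a gene is called higher or lower where its Benjamini-Hochberg adjusted p was under 0.05. All 10 members passed the filter on low values, Fgfr2 with 7 of 9 arrays above its limit and the others with 9 of 9. With BMP4, 1 of the 10 members was called against control, Fgf9, where 0.117% of all tested genes were called. With GREM1, Fgf9 and Fgfr1 were called, where the share over all tested genes was 4.28%. Between BMP4 and GREM1, Fgf9 and Fgfr1 were called as well, where the share was 6.45%. Because the members were picked with such results known, nothing is read from these shares. Counts at an unadjusted p under 0.05 have no share over all tested genes beside them, and nothing is read from them. The median difference of the 10 members was -0.12 with BMP4 and 0.014 with GREM1, beside -0.0060 and -0.0057 over all tested genes. Both treatments were set against the same 3 control arrays, so the 2 sets of differences are not independent of each other.

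**Figure D1:**
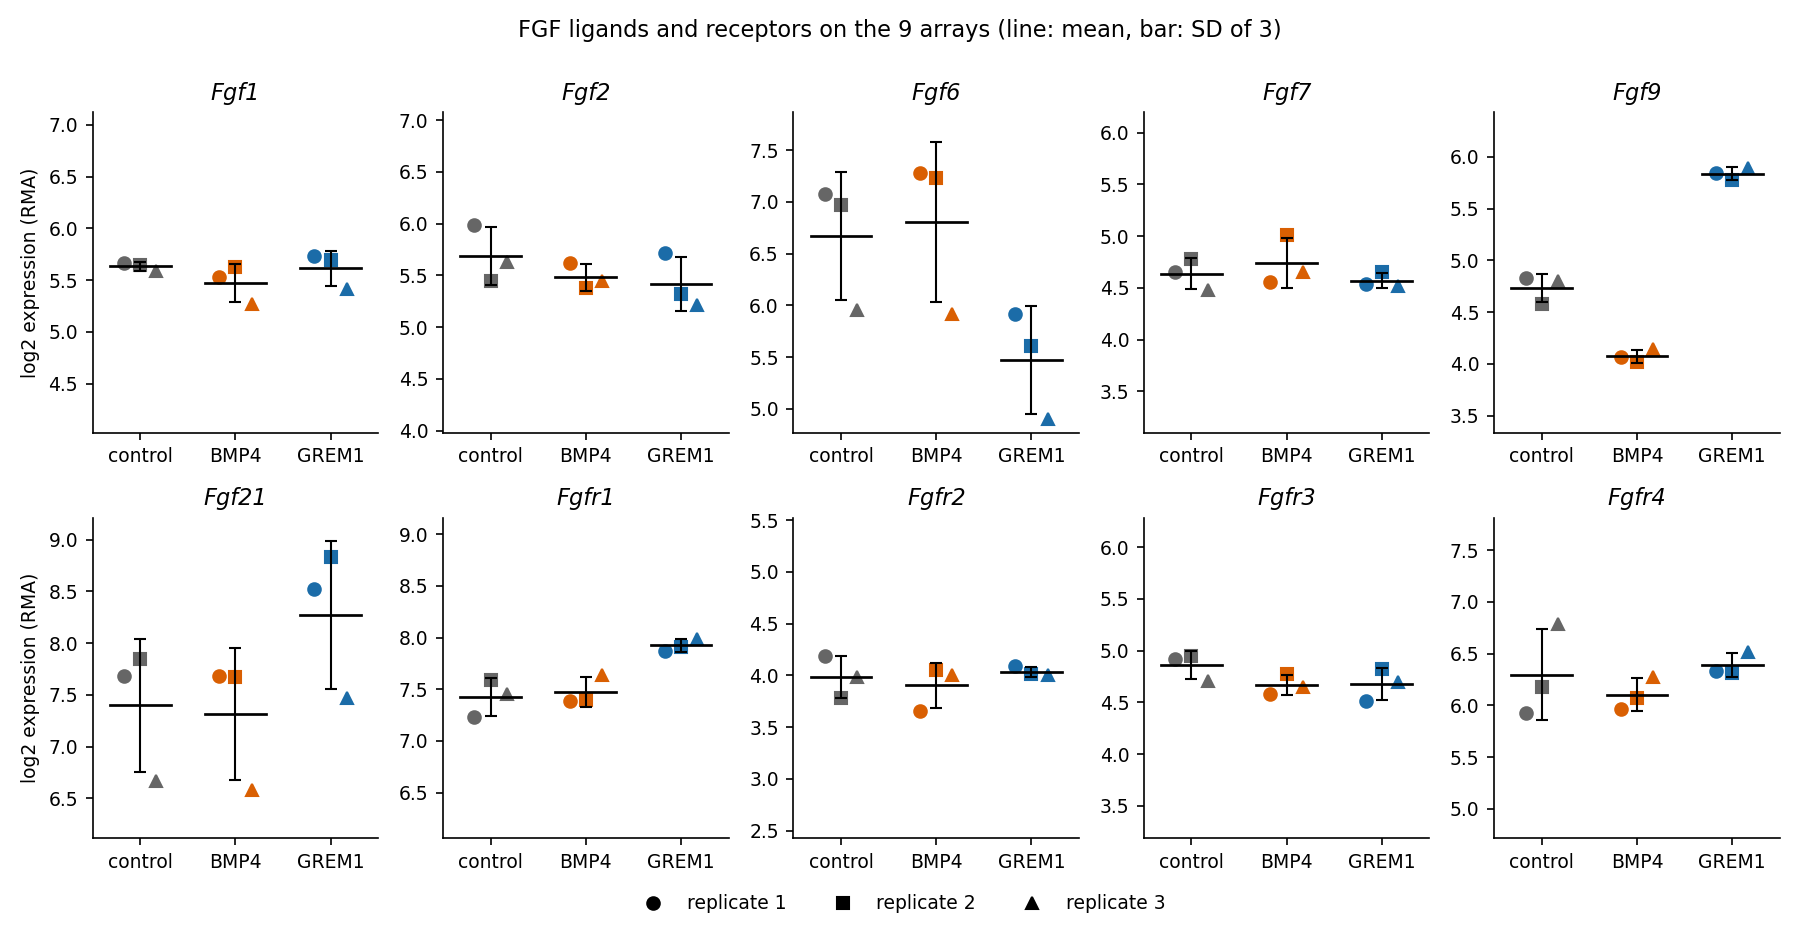
Log2 expression of the 10 FGF ligands and receptors (1 panel each) in the 9 arrays. Points are arrays, placed by group and shaped by replicate number, lines are group means and bars the SD of 3 arrays. Fgf9 separates all 3 groups, with BMP4 arrays from 4.01 to 4.14, control arrays from 4.58 to 4.83 and GREM1 arrays from 5.77 to 5.90, whereas replicate 3 lies lowest in each group for Fgf6 and Fgf21.

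Fgf9 moved in opposite directions with the 2 treatments. This ligand is known best from the embryo, where it signals between tissue layers through Fgfr2 and Fgfr3. Its log2 level was 4.83, 4.58 and 4.80 in control replicates 1 to 3, 4.07, 4.01 and 4.14 with BMP4, and 5.85, 5.77 and 5.90 with GREM1. Every BMP4 array lay below every control array and every GREM1 array above, so no 2 groups overlapped. Groups did not overlap for 11.2% of all tested genes between BMP4 and control, 24% between GREM1 and control and 24.5% between BMP4 and GREM1. The group means were 4.74 ± 0.136 (SD, n = 3), 4.07 ± 0.064 and 5.84 ± 0.061.

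With GREM1, Fgf9 rose by 1.10 ± 0.090 (SE), a 2.15-fold increase, with an adjusted p of 5.4e-04 in limma. Compared within a replicate number, the difference was 1.02, 1.19 and 1.09. With BMP4 it fell by 0.66 ± 0.090, which is 1.58-fold, with an adjusted p of 0.0331, and the 3 within-number differences were -0.76, -0.57 and -0.66. The treatments differed by -1.76 ± 0.090 (BMP4 minus GREM1), or 3.40-fold, the largest of the 10 members in that comparison. The BMP4 arrays, at 4.01 to 4.14, lay close to the filter limit of 3.89 to 4.02. Sizes are poorly resolved near that limit, so the folds of both comparisons with BMP4 arrays are approximate.

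The rise with GREM1 and the difference between the treatments stayed under the threshold without any 1 of the 9 arrays. The fall with BMP4 rests on all of them: without any 1 array the adjusted p was 0.0529 to 0.155, while the difference stayed between -0.74 and -0.62. With all arrays of a replicate number left out, which leaves 2 arrays a group, the adjusted p of the rise with GREM1 was 0.0600 without number 1, 0.0766 without number 2 and 0.0162 without number 3, with differences of 1.14, 1.06 and 1.11. The fall with BMP4 was then not called in any of these fits (adjusted p of 0.662, 0.677 and 0.231), with differences of -0.61, -0.71 and -0.66.

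**Figure D2:**
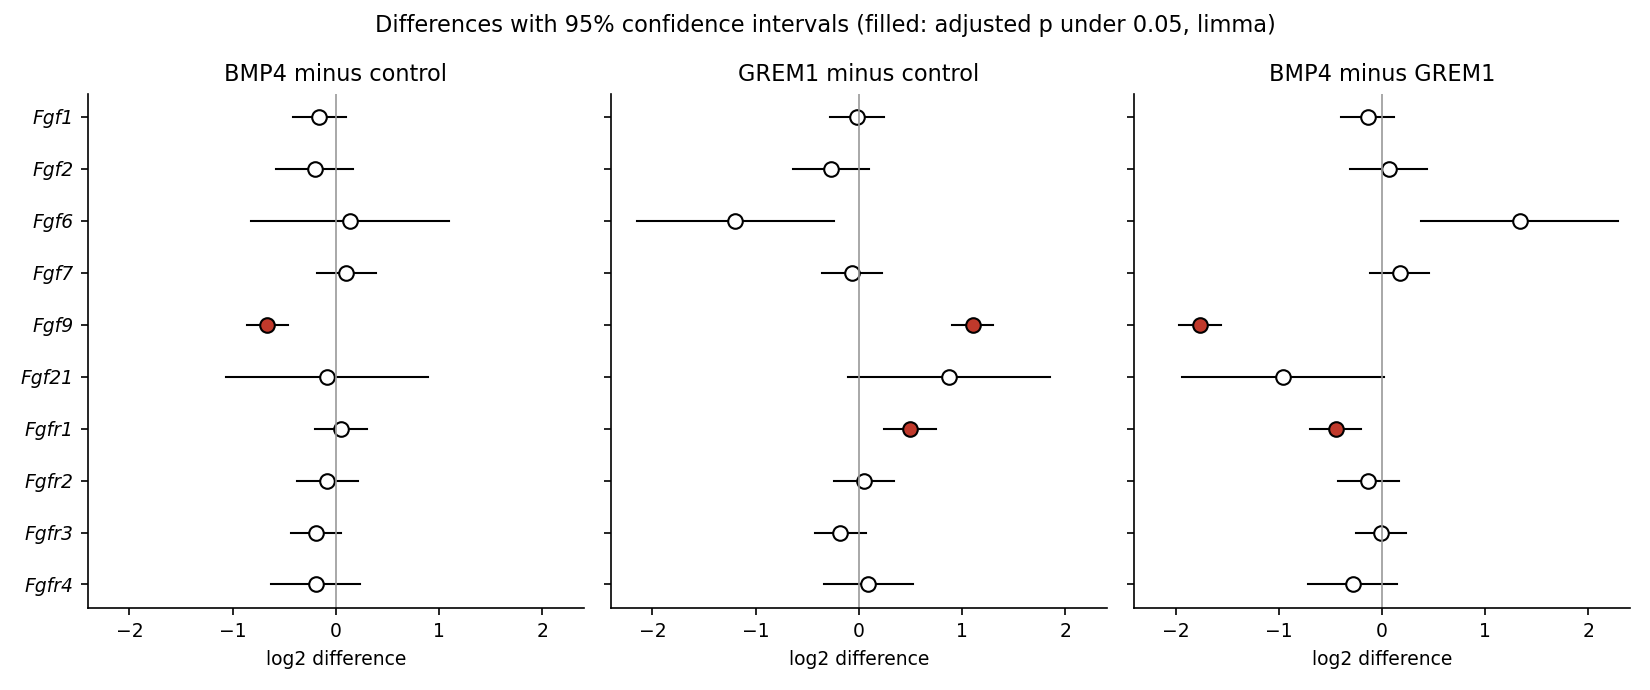
Differences in log2 expression of the 10 members for BMP4 minus control, GREM1 minus control and BMP4 minus GREM1, with 95% confidence intervals from the limma fit; filled points have an adjusted p under 0.05. Fgf9 is called in all 3 comparisons and Fgfr1 in both that involve GREM1, and the widest intervals belong to Fgf6 and Fgf21.

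Fgf6, the muscle-lineage ligand, was lower in all GREM1 arrays than in the matching control arrays, with a wide spread between replicates. Its level was 7.08, 6.97 and 5.96 in control, 7.28, 7.23 and 5.92 with BMP4, and 5.92, 5.61 and 4.90 with GREM1. Replicate 3 was the lowest array of every group, and the highest GREM1 array lay just under the lowest control array. The groups of GREM1 and control thus did not overlap.

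The Fgf6 difference with GREM1 was -1.20 ± 0.43 (SE), or 2.29-fold, and was not called (adjusted p = 0.152 in limma). Within replicate numbers it was -1.16, -1.37 and -1.06. The labels do not say that equal replicate numbers mark a shared culture, and the arrays' shared deviations were strongest for number 3. With replicate number as a block, the adjusted p of Fgf6 in limma was 9.7e-04. That fit called 4 of the 10 members with GREM1, where it called 11.6% of all tested genes. Of the 4, 3 were higher, beside 5.58% of all tested genes, and 1 was lower, beside 6%. With all arrays of a replicate number left out, the difference was -1.21 without number 1, -1.11 without number 2 and -1.27 without number 3, with adjusted p of 0.413, 0.495 and 0.0158. With BMP4, Fgf6 differed from control by 0.14 ± 0.43 (adjusted p = 0.949), and the 95% interval of -0.82 to 1.09 leaves room for sizeable changes either way. The BMP4 and GREM1 arrays differed in Fgf6 by 1.33 ± 0.43 (adjusted p = 0.109), and without number 1, 2 or 3 by 1.32, 1.19 or 1.49 (adjusted p of 0.310, 0.544 and 0.0034).

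Fgf21, the endocrine ligand known as a signal of metabolic and mitochondrial stress, had the same dependence on replicate number. Its level was 7.69, 7.85 and 6.67 in control, 7.69, 7.68 and 6.58 with BMP4, and 8.52, 8.83 and 7.47 with GREM1. Each GREM1 array was above the control array of its number, but GREM1 replicate 3 lay below control replicates 1 and 2, so the groups overlapped.

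With GREM1 the Fgf21 difference was 0.87 ± 0.44 (SE), or 1.83-fold, and was not called (adjusted p = 0.305 in limma). Within replicate numbers it was 0.83, 0.98 and 0.80, and with the replicate block the adjusted p in limma was 0.0011. Without number 1, 2 or 3 it was 0.89, 0.82 or 0.91, with adjusted p of 0.587, 0.577 and 0.0270. With BMP4 the difference was -0.086 ± 0.44 (adjusted p = 0.969). The BMP4 and GREM1 arrays differed by -0.96 ± 0.44 (adjusted p = 0.270), and by -1.02, -0.86 or -0.995 without number 1, 2 or 3 (adjusted p of 0.477, 0.656 and 0.0114). Klb, which encodes the beta-klotho co-receptor, differed by 0.098 ± 0.12 with GREM1 (adjusted p = 0.713) and by 0.11 ± 0.12 with BMP4 (adjusted p = 0.843). Its mean level of 4.02 in control and 4.13 with BMP4 lay close to the filter limit of 3.89 to 4.02, where small differences cannot be resolved.

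Fgf6 and Fgf21 shared this pattern across replicate numbers. The arrays numbered 3 lay on average 0.73 below their group mean for Fgf6 and 0.76 below for Fgf21, against 0.064 above for Fgf9. Once replicate number was in the fit, the residual SD went from 0.647 to 0.154 for Fgf6 and from 0.665 to 0.088 for Fgf21. Proliferation markers were highest in replicate 3 of each group (9.03 in control, 9.17 with BMP4 and 8.28 with GREM1). Differentiation markers were lowest in replicate 3 of control and of BMP4, but not with GREM1 (11.11, 11.19 and 11.14 in replicates 1 to 3). Between groups, GREM1 had the lowest proliferation levels, the lowest mean of Fgf6 and the highest mean of Fgf21. The part of these marker levels in the Fgf6 and Fgf21 values was not tested.

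**Figure D3:**
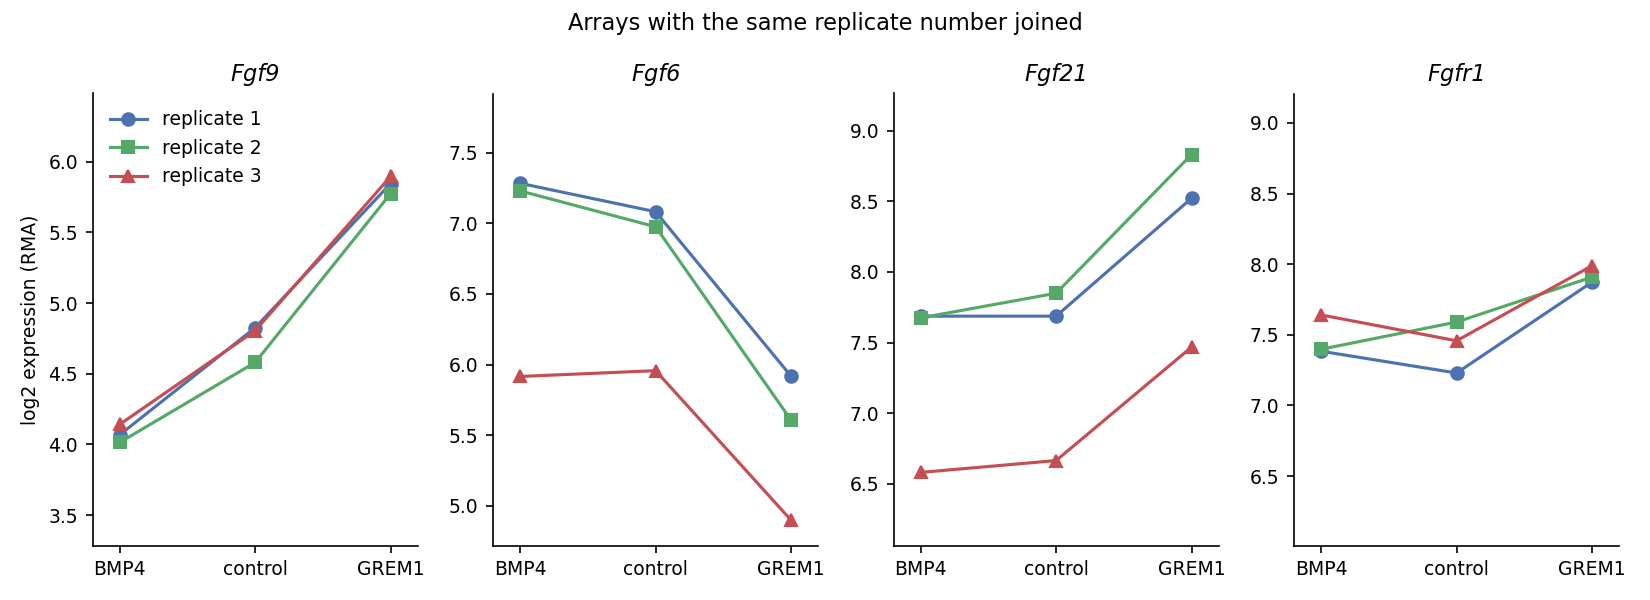
Log2 expression of Fgf9, Fgf6, Fgf21 and Fgfr1 (1 panel each) with BMP4, in control and with GREM1, where lines join arrays of the same replicate number. The replicate 3 line lies under the others for Fgf6 and Fgf21 but runs nearly in parallel with them, whereas the 3 lines of Fgf9 lie close together.

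The other ligands were called in 0 of the 3 comparisons by limma, and none reached an unadjusted p under 0.05. Fgf1, which binds all FGF receptors, ranged from 5.27 to 5.73 over the 9 arrays, and its difference from control was -0.16 ± 0.12 with BMP4. With GREM1 the Fgf1 difference was -0.021 ± 0.12, a value whose sign turned when the arrays were quantile normalized or centred again. Fgf2, the ligand that was also in the growth medium of all groups, ranged from 5.21 to 5.99 and differed by -0.21 ± 0.16 with BMP4 and -0.27 ± 0.16 with GREM1. Fgf7, known as keratinocyte growth factor, ranged from 4.48 to 5.01 and differed by 0.10 ± 0.13 and -0.069 ± 0.13. All groups overlapped for these 3 genes, and their 95% intervals against control lay within -0.64 and 0.39.

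Of the receptors, Fgfr1 rose with GREM1. Fgfr1 is a main receptor for Fgf2 in myoblasts. Its level was 7.23, 7.59 and 7.46 in control, 7.38, 7.40 and 7.64 with BMP4, and 7.87, 7.91 and 7.99 with GREM1. All GREM1 arrays were above all others, and the BMP4 and control arrays overlapped. The group means were 7.43 ± 0.182 (SD, n = 3), 7.47 ± 0.144 and 7.92 ± 0.059.

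The Fgfr1 difference with GREM1 was 0.50 ± 0.11 (SE), a 1.41-fold increase (adjusted p = 0.0402 in limma), and within replicate numbers it was 0.64, 0.32 and 0.53. BMP4 and GREM1 differed by -0.45 ± 0.11 (adjusted p = 0.0452). With BMP4 the difference from control was 0.048 ± 0.11 (adjusted p = 0.930), with a 95% interval of -0.20 to 0.30. Both calls sit close to the threshold. With all arrays of a replicate number left out, neither was called: without number 1, 2 or 3 the adjusted p was 0.244, 0.200 and 0.128 against control and 0.161, 0.336 and 0.102 between the treatments. The call against control was lost without control replicate 1 or 3, BMP4 replicate 1 or 2, or any GREM1 replicate (adjusted p up to 0.122), and the call between treatments without control replicate 3, BMP4 replicate 1 or 2, or any GREM1 replicate (up to 0.142).

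Fgfr4, the receptor enriched in the muscle lineage, was called in 0 comparisons by limma, and 0 of its unadjusted p were under 0.05. Its level was 5.93, 6.18 and 6.78 in control, 5.96, 6.07 and 6.27 with BMP4, and 6.33, 6.31 and 6.52 with GREM1. Control replicate 3 was the highest of all 9 arrays, so control overlapped both other groups, while all BMP4 arrays lay below all GREM1 arrays. That difference was -0.28 ± 0.19 (adjusted p = 0.492 in limma), and the differences from control were -0.19 ± 0.19 with BMP4 and 0.090 ± 0.19 with GREM1.

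Fgfr2 and Fgfr3 stayed within narrow ranges. Fgfr2, whose splice forms receive Fgf7 or Fgf9, ranged from 3.65 to 4.18, around the filter limit of 3.89 to 4.02, and differed from control by -0.082 ± 0.13 with BMP4 and 0.049 ± 0.13 with GREM1. Fgfr3, a receptor for Fgf9 best known for restraining bone growth, ranged from 4.51 to 4.95 and differed by -0.19 ± 0.11 and -0.18 ± 0.11. None of these passed the test, and the groups overlapped for both genes. The probe sets do not separate the splice forms of a receptor in these values.

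Among the other 16 genes of the FGF family, not all of them ligands, 12 could be tested. Limma called 0 against control in either comparison, beside 0.117% of all tested genes with BMP4 and 4.28% with GREM1. In each, 2 had an unadjusted p under 0.05. Between the treatments 1 was called, beside 6.45% of all tested genes. This was Fgf13 (-0.50 ± 0.12, adjusted p = 0.0402), an intracellular FGF homologue that is not secreted. The Fgf13 call was lost without any 1 array other than BMP4 replicate 1 (adjusted p up to 0.126).

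Genes that act with FGFs at the cell surface moved with GREM1 in part. Of 17 tested co-receptors and binding proteins, limma called 3 (beside 4.28% of all tested genes), all higher with GREM1 than in control: Flrt1, a membrane protein that binds FGF receptors (1.03 ± 0.20, adjusted p = 0.0238), Gpc1, a heparan sulfate proteoglycan (0.86 ± 0.12, adjusted p = 0.0056), and Ncam1, an adhesion molecule that can bind Fgfr1 (0.53 ± 0.13, adjusted p = 0.0485). With the replicate block the count was 8, where that fit called 11.6% of all tested genes, and 5 were higher (5.58% of all tested genes) and 3 lower (6%). The Flrt1 call was lost without any 1 control array or GREM1 replicate 1 (adjusted p up to 0.0774), and the Ncam1 call without any 1 array other than control replicate 2 or BMP4 replicate 3 (up to 0.149). The Gpc1 call was lost without replicate number 1 or 2 (adjusted p of 0.169 and 0.0980 in limma), with differences of 0.77 and 0.92. The list's median difference was 0.098.

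With BMP4, 0 of these 17 were called by limma, beside 0.117% of all tested genes, and 4 had an unadjusted p under 0.05. The block fit called 1 (0.379% of all tested genes), Sdc3 (syndecan 3, a heparan sulfate proteoglycan of satellite cells), at 0.56 ± 0.085 with an adjusted p of 0.0504 without the block and 0.0339 with it. Between BMP4 and GREM1, 7 were called, 3 higher with BMP4 and 4 lower, beside 6.45% of all tested genes. The 4 with the smallest p were Sdc3 (0.86 ± 0.085), Gpc4 (-0.67 ± 0.078), Gpc1 (-0.84 ± 0.12) and Flrt1 (-1.04 ± 0.20), with adjusted p in limma of 4.1e-04, 9.2e-04, 0.0028 and 0.0151. The Flrt1 call was lost without BMP4 replicate 2 (0.0577). Without replicate number 1 or 2, the adjusted p in limma was 0.0826 and 0.0619 for Gpc1 and 0.138 and 0.137 for Flrt1. The Gpc4 call was lost without number 2 (0.0789).

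Of 18 tested genes for heparan sulfate synthesis and editing, 2 fell with GREM1, beside 4.28% of all tested genes called. Ext1, which encodes a polymerase of the heparan sulfate chain, fell by 0.92 ± 0.14 (adjusted p = 0.0083 in limma), and Ndst3, a sulfotransferase of the chain, fell by 0.87 ± 0.18 (adjusted p = 0.0289). The Ndst3 call was lost without control replicate 1 or 3 or GREM1 replicate 1 or 2 (adjusted p up to 0.117). The Ext1 call was lost without replicate number 1 or 2 (adjusted p of 0.136 and 0.168 in limma), with differences of -0.99 and -0.86. With BMP4, 0 of the 18 were called by limma, beside 0.117% of all tested genes, and 3 had an unadjusted p under 0.05. Ext1 differed by 0.81 ± 0.14 with BMP4, with an adjusted p of 0.0783 and, with the replicate block, 0.0176. Between the treatments, Ext1 was higher with BMP4 by 1.72 ± 0.14 and Hs6st2, another sulfotransferase, lower by a difference of -0.51 ± 0.080 (adjusted p of 1.2e-04 and 0.0054).

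**Figure D4:**
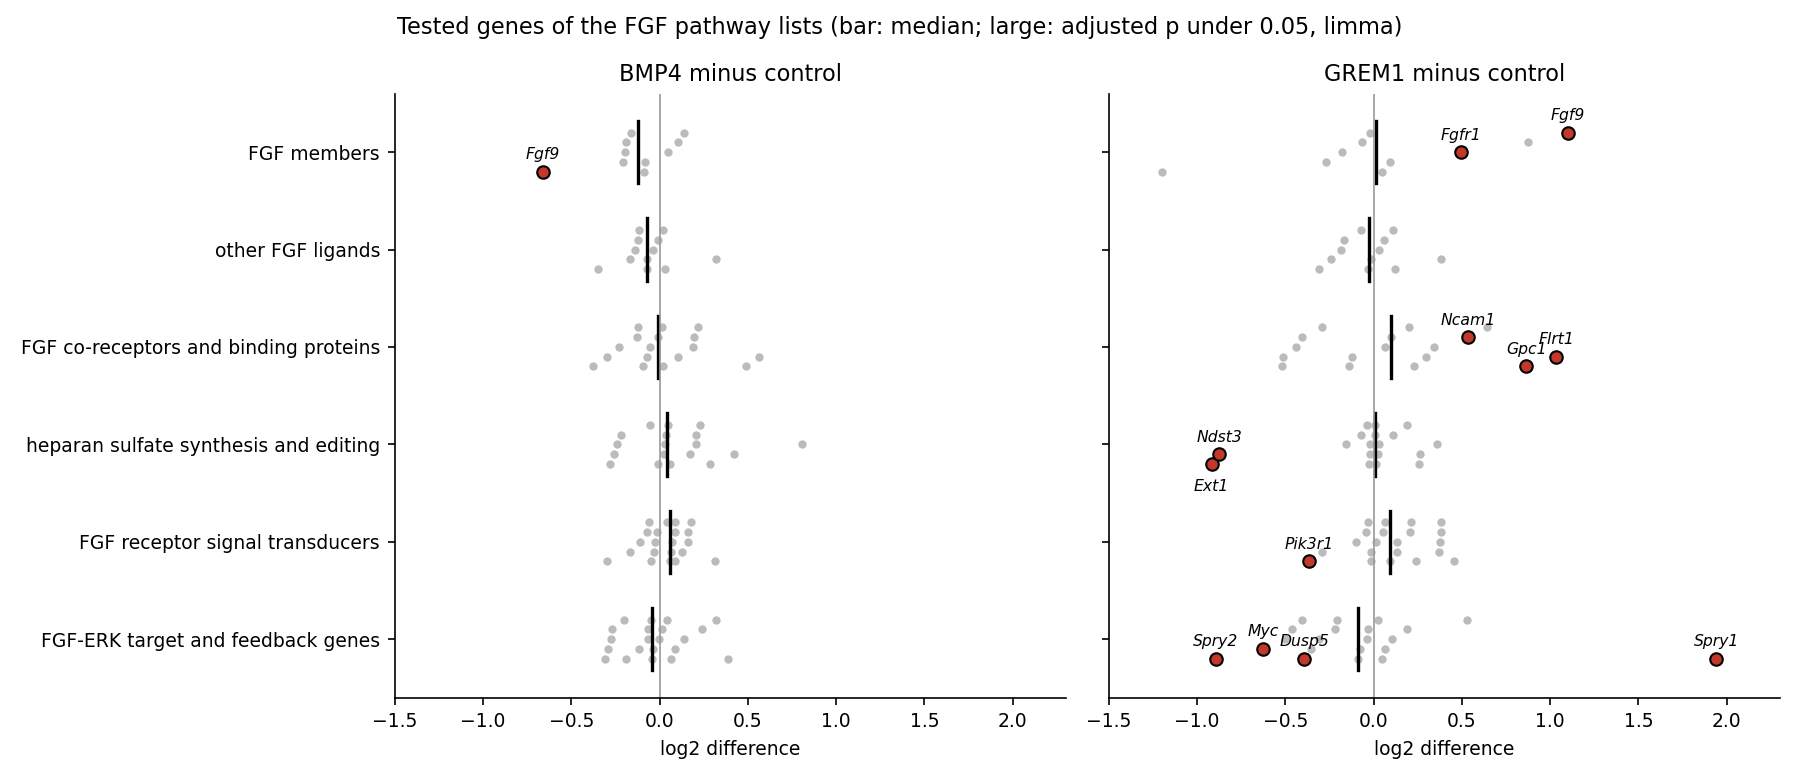
Differences in log2 expression with BMP4 and with GREM1 against control for the 10 members and the tested genes of 5 FGF pathway lists. Each point is a gene, large and named where its adjusted p in limma was under 0.05, and bars are list medians. Among the named genes Spry1 lies highest with GREM1 at 1.94 and Ext1 lowest at -0.92, and with BMP4 the 1 named gene is Fgf9.

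Inside the cell, 1 of 21 tested signal transducers was called with GREM1, a count near the 4.28% of all tested genes. It was Pik3r1 (a regulatory subunit of PI3K), at -0.36 ± 0.084 (adjusted p = 0.0447 in limma). With the replicate block, 5 were called, 4 higher and 1 lower, beside 11.6% of all tested genes. The Pik3r1 call was lost without any 1 array other than GREM1 replicate 1 (adjusted p up to 0.152). With BMP4, 0 were called by limma, beside 0.117% of all tested genes, and 2 had an unadjusted p under 0.05. Between the treatments, the adaptor Gab1 was lower with BMP4 by a difference of -0.54 ± 0.091 and Pik3r1 higher by 0.33 ± 0.084 (adjusted p of 0.0078 and 0.0491). The Pik3r1 call between the treatments was lost without any 1 array other than control replicate 1 or GREM1 replicate 1 (up to 0.164). The Gab1 call was lost without replicate number 1 or 2 (adjusted p of 0.116 and 0.210 in limma).

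The target and feedback genes of FGF-ERK signalling moved in both directions. With GREM1, 4 of 21 were called, 1 higher and 3 lower, beside 4.28% of all tested genes. With the replicate block 7 were called, 1 higher and 6 lower, beside 11.6% of all tested genes (5.58% higher and 6% lower). Spry1, a feedback inhibitor of receptor tyrosine kinases that is known to mark quiescent satellite cells, rose by 1.94 ± 0.16, or 3.84-fold (adjusted p = 5.4e-04 in limma). Its relative Spry2 fell by 0.89 ± 0.089 (adjusted p = 0.0014), the growth regulator Myc fell by 0.62 ± 0.10 (adjusted p = 0.0117), and Dusp5, a nuclear ERK phosphatase, fell by 0.39 ± 0.084 (adjusted p = 0.0340). The Dusp5 call was lost without any 1 array other than BMP4 replicate 3 (adjusted p up to 0.110).

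Of the other genes of this list, which were not called, Dusp6, a cytoplasmic ERK phosphatase, differed with GREM1 by 0.53 ± 0.26 (adjusted p = 0.299), and the transcription factors Etv4 and Etv5 by -0.22 ± 0.12 and -0.31 ± 0.13 (0.358 and 0.221). These 3 were named after their values were seen. With BMP4, 0 of the 21 were called by limma, beside 0.117% of all tested genes, and 3 had an unadjusted p under 0.05. Between the treatments 4 were called, beside 6.45% of all tested genes. Spry1 differed by -2.22 ± 0.16, Spry2 by 0.91 ± 0.089 and the phosphatase gene Dusp1 by 0.89 ± 0.15. Spred1, an inhibitor of RAS-ERK signalling, differed by 0.40 ± 0.087. The Spred1 call was lost without any 1 BMP4 array or without GREM1 replicate 1 or 2 (adjusted p up to 0.102). The Dusp1 call was lost without replicate number 1 or 2 (adjusted p of 0.115 and 0.158 in limma). In fits without the arrays of replicate number 1 or 2, Spry1 with GREM1 had an adjusted p of 0.0600 or 0.0772 and a difference of 1.97 or 2.06, where 9 or 4 of all tested genes were called. Spry2 with GREM1 then had an adjusted p of 0.0600 or 0.108 in limma, and Myc of 0.193 or 0.127. The median difference of the list was -0.088 with GREM1 and -0.043 with BMP4.

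Some proliferation and differentiation markers differed between GREM1 and control as well. The differences of all 9 tested proliferation markers lay below 0 (median -0.61), and those of all 13 differentiation markers above (median 0.30). With the replicate block, 7 of the 9 were called lower and 4 of the 13 higher, beside 6% and 5.58% of all tested genes. Without it, 3 of the 9 were called lower and 2 of the 13 higher, where 4.28% of all tested genes were called in either direction. The creatine kinase gene Ckm was 1 of those 2 (1.70, adjusted p = 0.0043 in limma). With BMP4, 0 genes of either list were called by limma, beside 0.117% of all tested genes, and 0 had an unadjusted p under 0.05. Their part in the FGF values was not tested.

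The tested genes whose profiles over the 9 arrays were nearest to a called member are given by the root mean square difference of centred log2 values. For Fgf9 they were Ckb (brain-type creatine kinase, 0.116), Laptm5 (a lysosomal membrane protein, 0.179) and Wfs1 (an endoplasmic reticulum protein, 0.186). Ckb differed from control by -0.58 with BMP4 and 1.12 with GREM1, beside -0.66 and 1.10 for Fgf9. For Fgfr1 they were Actn1 (an actin crosslinker, 0.0501), Pttg1ip (0.0624) and Ranbp10 (0.0726), whose differences with GREM1 lay between 0.45 and 0.50. These likenesses describe 9 arrays and were not tested.

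The protein-coding genes on either side of each member were compared as well. Of 20 such neighbours 15 were tested. With BMP4 limma called 0 (1 at an unadjusted p under 0.05), beside 0.117% of all tested genes. With GREM1 it called 2, beside 4.28%, and nothing is read from so small a count. Bcat2, a branched-chain amino acid enzyme gene beside Fgf21, was higher by 0.57 (adjusted p = 0.0238), and Tacc3, a spindle protein gene beside Fgfr3, was lower by a difference of -0.68 (adjusted p = 0.0379). Micu2, beside Fgf9, differed by 0.11 with BMP4 and 0.14 with GREM1 (adjusted p of 0.852 and 0.606).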

How the data were processed

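RNA of 9 myoblast samples (control, BMP4 and GREM1, 3 arrays each) was measured on Affymetrix arrays. The deposited values are log2 expression values made by the authors with RMA (background correction, normalization between arrays, summary per probe set). Per the submitters' processing notes this ran in Affymetrix Expression Console. The sources used here do not name the array model, chip definition or genome build. Values ran from 1.80 to 12.7 with array medians of 5.00 to 5.12, and precision is limited by the number of arrays.

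A single gene symbol was paired with 24015 of the 24973 probe sets, giving 24011 genes. The other 958 had no single symbol and were left out. Tested were the 17142 genes above an array's 30th percentile (3.89 to 4.02, over its named probe sets) on at least 3 arrays. Groups were compared in R 4.3.3 with limma 3.58.1 (lmFit, contrasts.fit and eBayes) on all 9 arrays, two-sided, with 6 residual degrees of freedom and Benjamini-Hochberg adjustment over all tested genes of a comparison. The code was tested on simulated data. Folds are 2 to the power of the log2 difference.

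Same-numbered arrays deviated together from their group means in both comparisons with control (r of 0.34, 0.17 and 0.58 for BMP4, 0.24, 0.12 and 0.47 for GREM1, over all tested genes). Pairs of different numbers ran from -0.47 to 0.23 over the 3 comparisons. Number 3 stood apart, but numbers 1 and 2 were not clearly told apart. Control 1 with GREM1 2 gave 0.16, above the 0.12 of control 2 with GREM1 2. Replicate number was used as a block beside those results, as a pairing that the labels do not state. Between BMP4 and GREM1, 1 of 3 correlations was 0.088, and the block is given in the closing section only.

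The members and gene lists were chosen with earlier results of these data known. Named are the 10 members, the called genes of each pathway list (at most the 4 with the smallest p per comparison), and the 3 genes nearest to each called member. Promoters are from RefSeq for GRCm38.p6, and gene order is from the same source's gene table. Alternatives were other samples in the fit, filters, scalings, weights and arrays left out. Leaving out all arrays of a replicate number was chosen after seeing the data.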

Additional observations from a re-analysis of the deposited data

How the results depend on the processing

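Fgf9 kept its direction under every alternative in all 3 comparisons. Its rise with GREM1 and the difference between treatments kept their calls under the 18 alternatives other than leaving out a replicate number, and its fall with BMP4 lost the call in the fit of only the 2 groups (adjusted p = 0.155 in limma), with centred arrays (0.0573) and without any 1 array. Fgfr1 with GREM1 lost the call in the fit of 2 groups (0.0666), with centred arrays (0.0567) and with no filter (0.0511), and between treatments with centred arrays (0.0860) and no filter (0.0577). Both Fgfr1 calls were also lost without the single arrays named above and without any replicate number (0.128 to 0.244 with GREM1, 0.102 to 0.336 between the treatments).

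Member calls with BMP4 were 0 in the fit of 2 groups and 0 with centred arrays (main 1), and 0 to 0 with arrays left out. With GREM1 they were 4 with the replicate block and 1 in the fit of 2 groups, 1 with centred arrays and 1 with no filter (main 2), and 0 to 3 with arrays left out. Between the treatments they were 4 with the replicate block, 1 with centred arrays and 1 with no filter (main 2), and 1 to 3 with arrays left out. Over all tested genes, calls with BMP4 (main 20) were 65 with the block, 5 in the fit of 2 groups, 68 with array weights, 31 with the stricter filter and 0 to 17 with arrays left out. Those with GREM1 (main 734) were 1985, 437 in the fit of 2 groups, and 4 to 901. Those between the treatments (main 1105) were 2192 with the block, 1768 with weights, and 167 to 1159. Centring moved the split with GREM1 from 355 higher and 379 lower to 387 higher and 272 lower.

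Between BMP4 and GREM1 the replicate block gave Fgf6 an adjusted p of 2.1e-04 and Fgf21 2.8e-04 in limma. Fgf6 was called there with array weights (0.0321) and without BMP4 replicate 3 (0.0338) too. The block ended no call of a member.

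Signs turned only in values that were not called, in 13 of the 30 differences of members. With array weights, Fgfr1 and Fgfr2 with BMP4 were -0.081 and 0.078, Fgf1 with GREM1 was 0.0074, and Fgf2 and Fgfr3 between the treatments were -0.012 and 0.038. After quantile normalization again and after centring, Fgf1 with GREM1 was 0.019 and 0.0037, and Fgfr3 between the treatments 4.8e-04 and 8.7e-04. With arrays left out, the differences with BMP4 ran from -0.22 to 0.58 for Fgf6, -0.033 to 0.20 for Fgf7, -0.45 to 0.28 for Fgf21, -0.050 to 0.17 for Fgfr1, -0.26 to 0.14 for Fgfr2 and -0.38 to 0.050 for Fgfr4. With GREM1 they ran from -0.080 to 0.076 for Fgf1, -0.15 to 0.0018 for Fgf7, -0.052 to 0.15 for Fgfr2 and -0.095 to 0.33 for Fgfr4. Between the treatments they ran from -0.038 to 0.21 for Fgf2, -0.22 to 0.020 for Fgfr2 and -0.093 to 0.065 for Fgfr3. Fgfr2 lay near the filter limit, where small differences cannot be resolved.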
